A study of Mus musculus with 12 samples.

Results

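The genes examined here encode the subunits of voltage-gated ion channels and of the channel families that share their gene symbols. They were every gene whose symbol starts with *Kcn*, *Cacna*, *Cacnb*, *Cacng* or *Hcn*, or with *Scn* and a digit, apart from *Kcnb2*, *Kcnq5* and *Kcnj13*, measured by a cluster of probes with that symbol alone. A gene entered if such a cluster had a log2 value above 5 in at least 3 of the 12 arrays, and its cluster with the highest mean stood for it. Of 127 such symbols 120 passed, among 16425 genes and 27966 clusters that passed the same threshold. The symbol rule also takes in inward rectifiers (12 genes), tandem-pore potassium channels (13), calcium- or sodium-activated potassium channel subunits (11), AMPA receptor auxiliary proteins of the *Cacng* group, and 2 non-coding transcripts (*Kcnq1ot1* and *Kcnd3os*), so not every member is gated by voltage. Just inside the threshold lay *Cacng1*, *Kcne3* and *Kcna7*, with 5.02, 5.09 and 5.14 as the value that the 3 highest arrays reached, and just outside it lay *Scn10a*, *Kcnj1* and *Kcnj15*, with 4.92, 4.82 and 4.72.

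RNA of brain lysates from 12 male mice aged 16 to 20 weeks was hybridized to Affymetrix arrays. The groups were trained Stau2GT, trained WT, naive Stau2GT and naive WT (n = 3 mice each). Stau2GT mice carry a gene trap (B6.129P2-Stau2Gt(RRG396)Byg) in *Stau2*, which encodes an RNA-binding protein of neurons, and are a knockdown model, and the strain background of all groups is labelled C57Bl/6J. Training meant 4 weeks with a series of behavioral tests (open field, object recognition and location, Barnes maze), which naive mice had not had. The comparisons asked whether channel transcripts differed between Stau2GT and WT brains within each training state, and between trained and naive brains within each genotype. Naive and trained arrays carry different codes in their array names, so training and this array code cannot be told apart. Stau2GT and WT arrays of 1 training state share a code.

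Voltage-gated sodium channels open on depolarization and carry the upstroke of the action potential, potassium channels of the Kv families repolarize the membrane and set firing rate and threshold, and calcium channels couple depolarization to transmitter release and gene expression. HCN channels open on hyperpolarization and pace rhythmic firing. Pore-forming subunits assemble with accessory subunits that set gating, trafficking and surface number, and cell types of the brain differ in the subunits they use.

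The gene trap itself was looked at first. *Stau2* averaged 8.01 in trained Stau2GT and 8.24 in trained WT brains, and 8.07 in naive Stau2GT and 8.25 in naive WT brains on the log2 scale (n = 3 each). The differences were -0.23 and -0.18, with limma unadjusted p of 0.00403 and 0.0162. They did not pass after adjustment over all clusters (limma adjusted p = 0.33 and 0.954). Array medians lay between 5.68 and 5.79. Arrays of 1 group correlated at 0.978 to 0.988 over all tested clusters, and the trained Stau2GT arrays were least alike (0.978 to 0.980). The pooled within-group SD of the channel genes ranged from 0.04 to 0.24 on the log2 scale and was highest for *Kcne4*. In a tissue lysate, fewer cells of a type and less RNA per cell cannot be told apart.

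No channel gene differed between Stau2GT and WT brains after adjustment over all clusters, in either training state. In trained mice 0 of 120 were called by limma at an adjusted p under 0.05, where 0.179% of all clusters were called, and in naive mice 0 of 120, against 0.0858% of all clusters. Averaged over both training states the count was 0 as well (0.118% of all clusters), and 0 genes had a genotype difference that itself differed between training states (interaction, 0.0215% of all clusters). At an unadjusted p under 0.05, limma marked 7 channel genes in trained mice (5.83%, against 8.92% of all clusters), 4 in naive mice (3.33%, against 5%), 5 on average (4.17%, against 6.23%) and 11 for the interaction (9.17%, against 7.7%). The methods' t-test marked 8 in trained mice (6% of all clusters) and 6 in naive mice (6.72% of all clusters) before adjustment, and 0 in each after it.

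The genotype differences were small as well as uncalled. Of the 120 genes, 112 in trained and 114 in naive mice differed by less than 0.2 on the log2 scale (93.3% and 95%, against 81% and 86.6% of all clusters). Each gene stands by its highest cluster, and the median standard error was also smaller for channel genes (0.0888, against 0.1038 for all clusters). The part of this precision in the shares was not tested. The 95% confidence interval of the difference lay within 0.5 of 0 for 114 genes in trained mice, 115 in naive mice and all 120 on average. The median difference was 0.02 in trained mice, against 0.0033 for all clusters, and became -0.0167 when each array was centered on its median. In naive mice the median was -0.0067, against 0 for all clusters, and 0.0067 with centering.

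**Figure D1:**
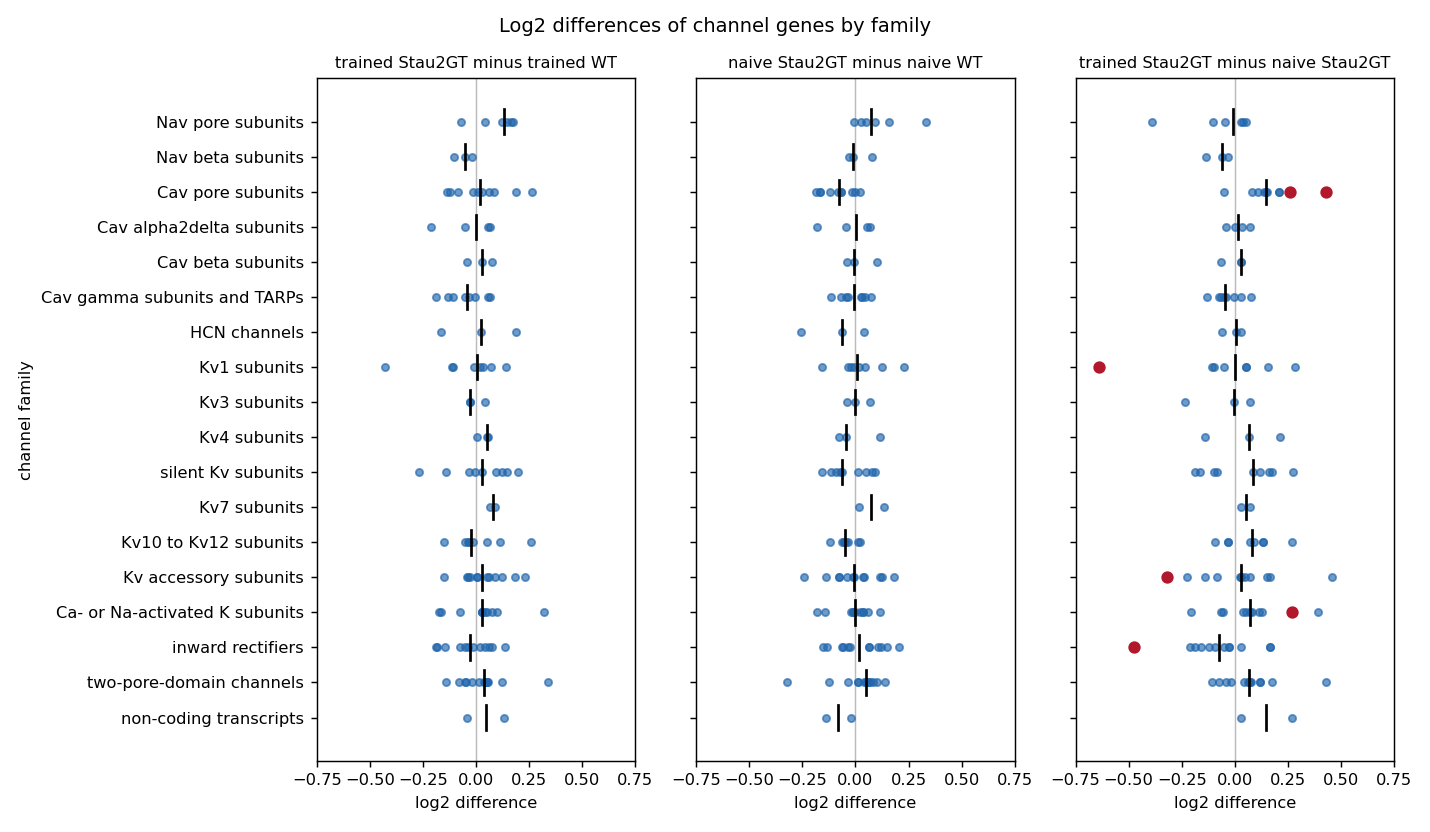
Log2 differences of the 120 channel genes (horizontal axis, no unit) by channel family (rows), for trained Stau2GT minus trained WT, naive Stau2GT minus naive WT, and trained Stau2GT minus naive Stau2GT. Each point is a gene, black lines are family medians, and the 6 large red points are the genes with an adjusted p under 0.05, all of them in the third panel.

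Of the sodium channel pore subunits, including the atypical *Scn7a*, 5 of 6 lay above 0 in trained and 5 of 6 in naive Stau2GT brains. The medians were 0.13 and 0.07 on the log2 scale, and none was called. With each array centered on its median the counts were 5 and 6 of 6. *Scn3a*, a sodium channel prominent in the developing brain, had log2 values of 8.74, 8.75 and 8.61 in trained Stau2GT brains and 8.59, 8.58 and 8.50 in trained WT brains. In naive mice its values were 8.69, 8.63 and 8.67 in Stau2GT and 8.56, 8.61 and 8.54 in WT brains. It was the 1 channel gene whose Stau2GT arrays lay above all WT arrays in both training states, a pattern found in 0.347% of all clusters, and no channel gene lay below in both (0.268% of all clusters). The *Scn3a* difference averaged 0.12 (limma unadjusted p = 0.0196, adjusted p = 0.735) and was not called.

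*Scn7a*, an atypical sodium channel that responds to extracellular sodium and is found largely in glia and sensory structures, had log2 values of 6.42, 6.21 and 6.42 in naive Stau2GT and 6.13, 5.87 and 6.06 in naive WT brains. In trained mice it had 6.07, 5.65 and 6.16 in Stau2GT and 6.01, 5.68 and 5.67 in WT brains, so that the arrays separated in naive mice and overlapped in trained mice. Its differences were 0.33 in naive and 0.17 in trained mice, and neither was called (adjusted p = 0.979 in naive mice by limma). *Scn3a*, *Scn2a*, *Scn1a*, *Scn9a* and *Scn7a* lie close together on mouse chromosome 2, in this order in the RefSeq annotation, whereas *Scn8a*, the channel of nodes and axon initial segments, lies on chromosome 15. *Scn8a* differed by -0.07 in trained and 0.05 in naive mice, and *Scn1a*, the main sodium channel of fast-spiking interneurons, by 0.04 and -0.0067. Of the 3 beta subunits measured, which anchor and modulate the pore, 0 of 3 lay above 0 in trained and 1 of 3 in naive mice.

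Of the calcium channel pore subunits, 9 of 10 lay below 0 in naive mice (median -0.08, 8 of 10 with centering), against 4 of 10 below 0 in trained mice (6 of 10 with centering). Among all clusters, 48.97% lay above 0 in naive and 50.85% in trained mice. *Cacna1c*, the L-type channel that links calcium entry to transcription, had log2 values of 8.85, 8.78 and 8.85 in naive Stau2GT and 9.05, 9.01 and 8.92 in naive WT brains, which did not overlap. In trained mice it had 8.94, 9.04 and 8.94 in Stau2GT and 8.99, 9.01 and 8.89 in WT brains, which overlapped. The naive difference was -0.17 and did not pass (adjusted p = 0.954). *Cacna1h*, a T-type channel of low-threshold firing, had 7.54, 7.49 and 7.31 in naive Stau2GT and 7.55, 7.67 and 7.62 in naive WT brains, and 7.60, 7.48 and 7.50 in trained Stau2GT and 7.72, 7.54 and 7.69 in trained WT brains. Averaged over training states it was -0.145 (limma adjusted p = 0.737). *Cacnb4*, a beta subunit of presynaptic calcium channels, averaged 0.09 in its main cluster (limma adjusted p = 0.808). Its second cluster averaged -0.04, and the mean over both clusters was 0.02. *Cacna2d4*, an alpha2delta subunit known from the retina, averaged -0.20 with values near the threshold of 5.

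*Kcna4*, the Kv1 subunit that gives a rapidly inactivating (A-type) potassium current in axons, had the largest genotype difference of the 120 genes in trained mice, in 1 of its 2 clusters. In the main cluster its log2 values were 7.58, 7.43 and 7.58 in trained Stau2GT brains and 7.91, 7.89 and 8.08 in trained WT brains. In naive mice they were 8.05, 8.29 and 8.17 in Stau2GT and 8.18, 7.72 and 7.93 in WT brains. The trained Stau2GT arrays lay below every other array, and the naive groups overlapped. The difference was -0.43 in trained mice (-25.8% in signal, 95% confidence interval -0.68 to -0.18, limma unadjusted p = 0.00322, adjusted p = 0.314) and 0.23 in naive mice (adjusted p = 0.998). The difference of these differences was -0.66 (unadjusted p = 0.00193, adjusted p = 0.448). The second cluster, of a similar mean level (7.83, against 7.90), differed by 0.06 in trained mice, and the mean over both clusters by -0.18 (adjusted p = 0.517).

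The other potassium channel genes with the lowest unadjusted p in trained mice were *Kcnn4*, a calcium-activated channel of blood and immune cells (0.32), *Kcnh8*, a Kv12 subunit (0.26), *Kcnk5*, an acid-sensitive tandem-pore channel (0.34), and, on the low side, *Kcnt2*, a sodium-activated channel (-0.18), and *Kcnf1*, a silent Kv subunit (-0.27). *Kcnn4* had 5.68, 5.58 and 5.68 in trained Stau2GT and 5.15, 5.34 and 5.49 in trained WT brains, and *Kcnt2* had 8.40, 8.32 and 8.36 in trained Stau2GT and 8.54, 8.51 and 8.56 in trained WT brains. Both separated the groups, and neither passed (adjusted p = 0.441 and 0.448 by limma). Over the 12 arrays *Kcnk5* spanned 4.64 to 5.46, *Kcnh8* 5.10 to 5.57 and *Kcnn4* 5.15 to 5.68, all near the threshold of 5. *Cacna1f* (0.26), *Cacng8* (-0.19), an AMPA receptor auxiliary protein of the hippocampus, and *Hcn2* (-0.16), a pacemaker channel, completed the trained list, with adjusted p of 0.417, 0.59 and 0.598.

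In naive mice, the potassium channel genes with the lowest unadjusted p were *Kcnn2*, the small-conductance calcium-activated channel of the afterhyperpolarization, and *Kcnab1*, a Kv1 beta subunit. *Kcnn2* had 7.65, 7.78 and 7.63 in naive Stau2GT and 7.86, 7.84 and 7.91 in naive WT brains, a difference of -0.18, while its trained values were 7.68, 7.58 and 7.60 in Stau2GT and 7.65, 7.57 and 7.56 in WT brains. *Kcnab1* had 8.21, 8.16 and 8.06 in naive Stau2GT and 7.94, 7.95 and 8.0 in naive WT brains, a difference of 0.18. The naive groups of both genes did not overlap, and the adjusted p was 0.954 for each by limma. *Kcnj2* (0.21), *Kcnk5* (-0.32) and *Kcnj6* (-0.15), which encodes a G-protein-gated inward rectifier, were also among the named genes, with overlapping groups. For the interaction, *Kcnk5* (0.66), *Kcnn4* (0.46) and *Cacna1f* (0.35) had the lowest unadjusted p above 0, and *Kcna4*, *Kcnj5*, another G-protein-gated rectifier (-0.34), and *Kcnj2* (-0.39) had the lowest below 0. None passed.

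By family, the medians of trained and naive differences were 0.0033 and 0.005 for the 8 Kv1 subunits, -0.0267 and 0 for 3 Kv3 subunits, 0.05 and -0.0433 for 3 Kv4 subunits, and 0.03 and -0.0633 for 9 silent Kv subunits, which work only with other Kv pores. For the 2 Kv7 subunits, which carry slow potassium currents, they were 0.0783 and 0.075, and for the 8 subunits of the Kv10 to Kv12 group -0.025 and -0.0483. The 12 accessory Kv subunits had 0.0283 and -0.0083, the 8 *Cacng* genes -0.0433 and -0.005, the 4 alpha2delta subunits 0.0017 and 0.0033, and the 3 HCN channels 0.0233 and -0.0633. The 12 inward rectifiers had -0.0267 and 0.0183, the 13 tandem-pore channels 0.0367 and 0.05, and the 11 calcium- or sodium-activated channel subunits 0.03 and 0. All these medians lay within 0.1 of 0, and several had no settled sign. With each array centered on its median, the trained medians of the Kv1 (-0.0333), silent Kv (-0.0067), accessory Kv (-0.0083), alpha2delta (-0.035), HCN (-0.0133) and calcium- or sodium-activated (-0.0067) subunits turned negative, and the naive medians of the accessory Kv (0.005) and *Cacng* genes (0.0083) turned positive. Quantile normalization turned those of HCN channels (-0.0117) and Kv1 subunits (-3e-04) in trained mice and of alpha2delta subunits in naive mice (-0.0171).

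**Figure D2:**
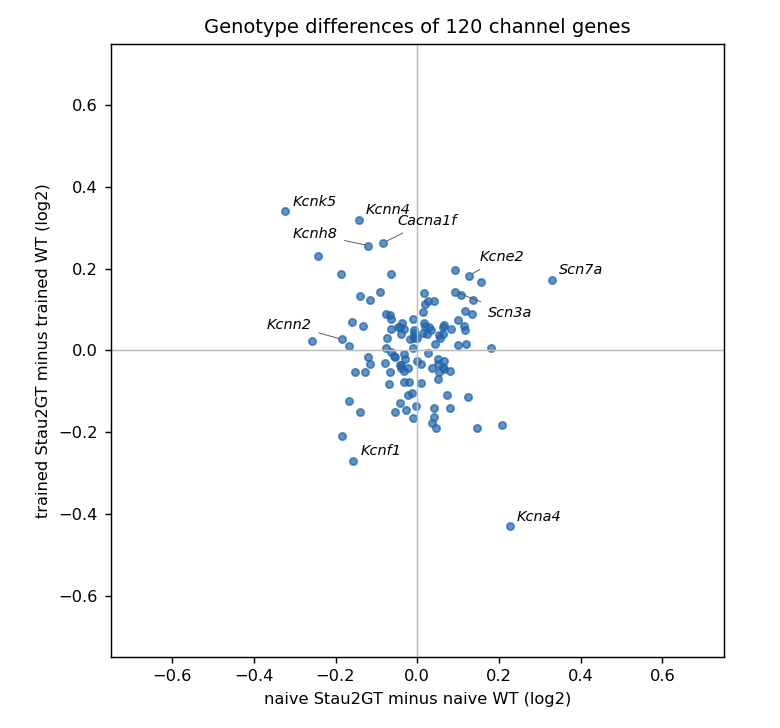
Log2 difference of trained Stau2GT minus trained WT (vertical axis) against naive Stau2GT minus naive WT (horizontal axis), 1 point for each of the 120 channel genes. *Kcna4* lies at -0.43 on the vertical and 0.23 on the horizontal axis, and most points lie within 0.2 of 0 on both.

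The genotype differences were also set side by side between the 2 training states, which share no samples. They had the same sign in 63 of 120 genes (52.5%, against 46.1% of all clusters), and Pearson's r across the 120 genes was -0.15, against 0.05 across all clusters. Genes share the same arrays and are not independent replicates, so these are descriptions. In trained mice 8 channel genes had all Stau2GT arrays above all WT arrays (6.15% of all clusters) and 5 had them below (5.02%), and in naive mice 3 lay above (6.39%) and 6 below (5.62%).

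Between trained and naive brains, channel genes were called in Stau2GT mice and none in WT mice. In Stau2GT mice 6 of 120 (5%) were called by limma, 3 higher and 3 lower in trained brains, where 6.11% of all clusters were called. Leaving out each array in turn gave 1 to 6 called genes, where 430 to 2150 of all clusters were called. With each array centered on its median 1 was higher and 4 were lower, where 2129 of all clusters were called. In WT mice 0 of 120 were called, where 1.4% of all clusters were called. At an unadjusted p under 0.05 there were 21 genes in Stau2GT mice (17.5%, against 26.2% of all clusters) and 8 in WT mice (6.67%, against 16%), and the methods' t-test marked 15 (18.5% of all clusters) and 16 (15.1% of all clusters), with 0 after adjustment in each genotype. Whether training acted differently in the 2 genotypes is the interaction given above, in which 0 genes passed. The 6 genes are named below because they were called, so they were chosen after their values were seen.

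The gene with the lowest adjusted p was *Kcnj16*, an inward rectifier subunit that pairs with the *Kcnj10* product in astrocytes and responds to pH. It had log2 values of 7.28, 7.39 and 7.43 in trained Stau2GT brains and 7.82, 7.98 and 7.72 in naive Stau2GT brains. In WT mice it had 7.34, 7.40 and 7.31 in trained and 7.67, 7.83 and 7.66 in naive brains. In both genotypes every trained array lay below every naive array. The trained means were 7.37 ± 0.08 in Stau2GT and 7.35 ± 0.05 in WT brains, against naive means of 7.84 ± 0.13 and 7.72 ± 0.10 (SD, n = 3 each). *Kcnj16* was lower by 0.47 in trained than in naive Stau2GT brains (log2 difference -0.47, standard error 0.08, limma adjusted p = 0.0145) and the WT difference was -0.37 (adjusted p = 0.0563). The call in Stau2GT mice held when each of the 12 arrays was left out in turn, and was lost when only the 6 Stau2GT arrays were fitted (adjusted p = 0.0692) and by the methods' t-test (adjusted p = 0.155). Its partner *Kcnj10* differed by -0.12 in Stau2GT and -0.08 in WT mice and its neighbor on chromosome 11, *Kcnj2*, by -0.21 and 0.18, none of them called. Of 15 astrocyte markers 7 lay above 0, with a median of -0.01, between trained and naive Stau2GT brains.

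*Kcna4* had the largest log2 difference of the 120 genes between trained and naive Stau2GT brains, -0.64 (standard error 0.11, limma adjusted p = 0.0157), with the array values given above. In WT mice the difference was 0.02 (adjusted p = 0.964, 95% confidence interval -0.24 to 0.27), and its sign there turned to -0.0067 with centering. The Stau2GT call was lost without naive Stau2GT mouse 2 (adjusted p = 0.0523) or without trained Stau2GT mouse 2 (adjusted p = 0.0531). It also rests on 1 of 2 clusters. The second cluster of *Kcna4* had 7.85, 7.76 and 7.89 in trained Stau2GT and 8.03, 7.73 and 7.78 in naive Stau2GT brains, a difference of -0.01 (adjusted p = 0.949), and 7.73, 7.65 and 7.93 in trained WT and 7.83, 8.03 and 7.77 in naive WT brains. The mean over both clusters differed by -0.33 between trained and naive Stau2GT brains (adjusted p = 0.0371). The 2 clusters of the gene thus disagree, and the part of the transcript that each covers was not analysed here.

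*Kcnab3*, a further Kv1 beta subunit, had 7.06, 6.84 and 7.01 in trained and 7.31, 7.32 and 7.24 in naive Stau2GT brains, and 7.18, 7.13 and 7.05 in trained and 7.35, 7.37 and 7.57 in naive WT brains. The trained arrays lay below the naive arrays in both genotypes, with differences of -0.32 (adjusted p = 0.0448) and -0.31 (adjusted p = 0.0949). These values are of its main cluster. Its second cluster, with a mean of 5.46, differed by -0.0033 in Stau2GT mice and by 0.18 in WT mice. As the mean over both clusters the differences were -0.16 and -0.065, and the Stau2GT call was lost. Averaged over training states, *Kcnab3* was also among the genes with the lowest genotype p, at -0.145 (limma adjusted p = 0.748).

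**Figure D3:**
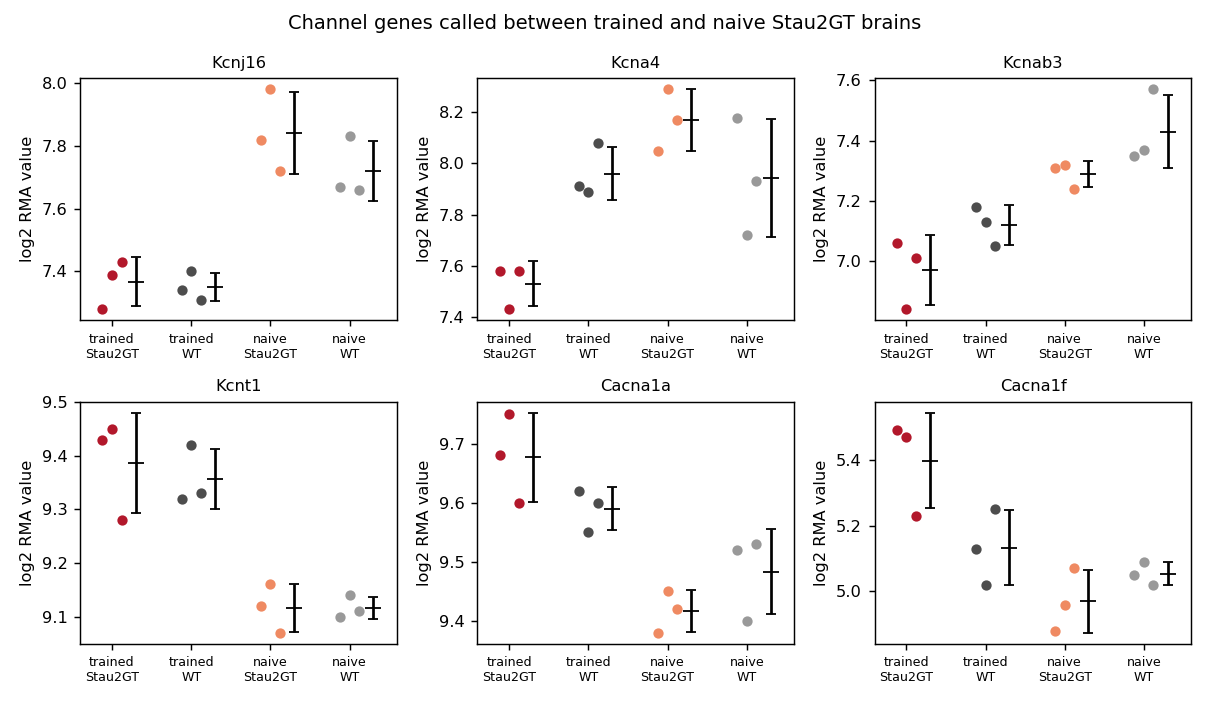
Log2 values (vertical axes) of the 6 channel genes called between trained and naive Stau2GT brains, for the groups trained Stau2GT, trained WT, naive Stau2GT and naive WT. Points are mice, and bars give the mean and SD (n = 3). *Kcnj16*, *Kcnab3*, *Kcnt1* and *Cacna1a* separate trained from naive arrays in both genotypes, while *Kcna4* and *Cacna1f* do so in Stau2GT mice and not in WT mice.

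The 3 genes higher in trained Stau2GT brains were *Kcnt1*, *Cacna1a* and *Cacna1f*. *Kcnt1*, a sodium-activated potassium channel, had 9.43, 9.45 and 9.28 in trained and 9.12, 9.16 and 9.07 in naive Stau2GT brains, and 9.32, 9.42 and 9.33 in trained and 9.10, 9.14 and 9.11 in naive WT brains. All trained arrays lay above all naive arrays, and the differences were 0.27 in Stau2GT (adjusted p = 0.0371) and 0.24 in WT mice (adjusted p = 0.1). *Cacna1a*, the P/Q-type channel of transmitter release that Purkinje cells use heavily, had 9.68, 9.75 and 9.60 in trained and 9.38, 9.45 and 9.42 in naive Stau2GT brains, a difference of 0.26 (adjusted p = 0.0399). In WT mice it had 9.62, 9.55 and 9.60 in trained and 9.52, 9.40 and 9.53 in naive brains, a difference of 0.11 (adjusted p = 0.455). *Cacna1f*, an L-type channel known from photoreceptors, had 5.49, 5.47 and 5.23 in trained and 4.88, 4.96 and 5.07 in naive Stau2GT brains, against 5.13, 5.02 and 5.25 in trained and 5.05, 5.09 and 5.02 in naive WT brains. The *Cacna1f* difference was 0.43 in Stau2GT mice (adjusted p = 0.0252) and 0.08 in WT mice, at values close to the threshold of 5.

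Over the 12 fits that each left out 1 array, *Cacna1f* passed in 8 and not without naive Stau2GT mouse 1 or 2 or trained Stau2GT mouse 1 or 2 (adjusted p up to 0.0808). *Kcnt1* passed in 3, without trained WT mouse 1 or 2 or trained Stau2GT mouse 3, and reached an adjusted p of 0.112 otherwise. *Cacna1a* passed in 2, without naive WT mouse 2 or trained Stau2GT mouse 3 (up to 0.118 otherwise), and *Kcnab3* in 2, without naive WT mouse 3 or trained Stau2GT mouse 1 (up to 0.134 otherwise). Across all 10 calcium channel pore subunits, 9 lay above 0 between trained and naive Stau2GT brains (median 0.15, 9 of 10 with centering, 10 of 10 with quantile normalization) and 8 between trained and naive WT brains (median 0.08). Among all clusters, 52.99% and 50.94% lay above 0. The same naive Stau2GT arrays enter the naive genotype comparison, in which 9 of 10 lay below 0, so the 2 counts are not independent. Inward rectifiers lay mostly below 0 in Stau2GT mice (9 of 12, median -0.07, 10 of 12 with centering) and were evenly split in WT mice (6 of 12). Over all 120 genes the medians were 0.03 in Stau2GT mice, against 0.0167 for all clusters, and 0.0167 in WT mice, against 0.0033, and with centering they became -0.0433 and -0.0067.

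Promoter sequence is shown for the genes called between trained and naive Stau2GT brains that have an entry in the RefSeq promoter table for GRCm38.p6. It is given as 250 bases upstream of the listed start on the plus strand. Capitals mark a match to 1 of 4 motifs searched on both strands, the cAMP response element (TGACGTCA), the E-box (CACGTG), the GC box (GGGCGG) and the TATA box (TATAAA). *Kcna4* lies at chr2:107290339-107290588, *Kcnj16* at chr11:110967783-110968032 (the first of 4 listed starts) and *Cacna1f* at chrX:7606853-7607102.
Kcna4: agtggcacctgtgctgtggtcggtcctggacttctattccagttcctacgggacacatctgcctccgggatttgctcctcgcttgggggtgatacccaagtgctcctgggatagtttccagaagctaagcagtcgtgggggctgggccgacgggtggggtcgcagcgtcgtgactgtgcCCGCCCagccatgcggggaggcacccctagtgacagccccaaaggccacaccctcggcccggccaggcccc
Kcnj16: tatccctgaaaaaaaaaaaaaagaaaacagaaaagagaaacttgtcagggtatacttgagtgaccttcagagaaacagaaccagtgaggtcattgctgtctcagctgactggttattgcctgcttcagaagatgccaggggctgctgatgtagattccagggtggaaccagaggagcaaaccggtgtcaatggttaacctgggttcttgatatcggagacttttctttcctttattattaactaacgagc
Cacna1f: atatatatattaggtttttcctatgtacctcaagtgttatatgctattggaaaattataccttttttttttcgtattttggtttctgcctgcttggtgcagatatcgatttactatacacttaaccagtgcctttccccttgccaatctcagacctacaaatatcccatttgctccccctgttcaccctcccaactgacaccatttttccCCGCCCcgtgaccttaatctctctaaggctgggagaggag
The *Kcna4* and *Cacna1f* windows hold 1 GC box each, written here on the opposite strand as CCGCCC, and the *Kcnj16* window holds none of the 4 motifs. The GC share is 65.2% for *Kcna4*, 42.8% for *Kcnj16* and 41.6% for *Cacna1f*. A promoter was listed for 94 of the 120 genes, 128 promoters in all. Their median GC share was 58.8%, against 52.4% of all 32851 promoters, and a GC box was in 45.3% of them, against 32.7%. The E-box was in 4.69% (6.02% of all promoters), the TATA box in 3.12% (12.4%), and the cAMP response element in 0% (1.55%). These are matches of letters only.

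Channel genes that separated trained from naive arrays in both genotypes were *Cacna1a*, *Kcnd3* and *Kcnt1* on the high side, 3 of 120 (3.94% of all clusters), and *Kcnab3* and *Kcnj16* on the low side, 2 of 120 (5.07% of all clusters). Within Stau2GT mice 15 genes separated upward (15.2% of all clusters) and 9 downward (12.9%), and within WT mice 10 upward (11.4%) and 11 downward (11.5%). *Kcnd3*, an A-type Kv4 subunit of dendrites, had 8.05, 8.0 and 7.82 in trained and 7.71, 7.78 and 7.74 in naive Stau2GT brains, and 7.98, 7.98 and 7.89 in trained and 7.83, 7.83 and 7.80 in naive WT brains, with adjusted p of 0.0863 and 0.391. *Kcnn2* separated trained from naive arrays in WT mice, with a difference of -0.28 there (adjusted p = 0.0631) and -0.07 in Stau2GT mice, and the 2 were not shown to differ (interaction adjusted p = 0.642).

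**Figure D4:**
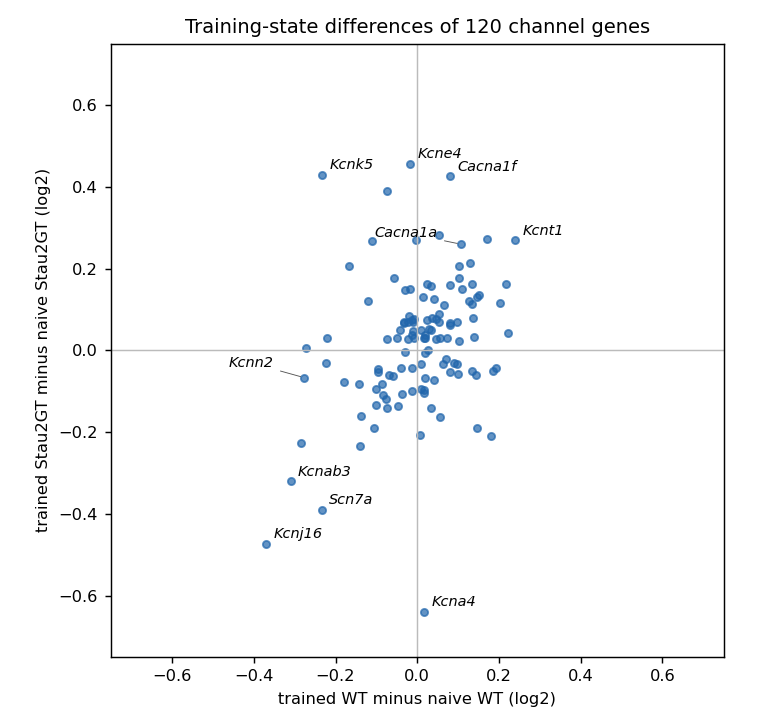
Log2 difference of trained minus naive Stau2GT brains (vertical axis) against trained minus naive WT brains (horizontal axis), 1 point for each of the 120 channel genes. *Kcnj16* (-0.47 and -0.37) and *Kcnab3* (-0.32 and -0.31) lie low on both axes, and *Kcna4* lies at -0.64 on the vertical axis and 0.02 on the horizontal axis.

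The training differences of the 2 genotypes, which share no samples, had the same sign in 70 of 120 channel genes (58.3%, against 67.9% of all clusters), with r = 0.33 across the 120 genes and 0.55 across all clusters. The share of channel genes within 0.2 of 0 was 82.5% in Stau2GT and 89.2% in WT mice, against 63.4% and 74.1% of all clusters. The median standard error was smaller for channel genes here too (0.0888, against 0.1038), and its part in these shares was not tested. Trained and naive arrays of both genotypes differ in the array code as well as in training, and the part of the code in these values cannot be told apart from that of training.

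For 9 channel genes a second cluster passed the threshold, and 3 of these 9 second clusters were called between trained and naive Stau2GT brains while the main cluster was not (6.11% of all clusters were called). They belong to *Cacng2* (0.72, adjusted p = 0.00777), *Kcnmb4*, a neuronal beta subunit of the large-conductance potassium channel (0.29, adjusted p = 0.0439), and *Cacnb2*, a calcium channel beta subunit (0.31, adjusted p = 0.0406). *Cacng2* encodes stargazin, the AMPA receptor auxiliary protein of cerebellar granule cells. Its second cluster had 7.48, 7.29 and 7.41 in trained Stau2GT, 7.04, 7.14 and 6.91 in trained WT, 6.68, 6.77 and 6.58 in naive Stau2GT, and 6.48, 6.83 and 6.76 in naive WT brains. Trained arrays lay above naive arrays in both genotypes, and trained Stau2GT above trained WT arrays (0.36, adjusted p = 0.346). The main cluster of *Cacng2* had 9.53, 9.53 and 9.65 in trained and 9.68, 9.68 and 9.75 in naive Stau2GT brains, a difference of -0.13, so the clusters of this gene ran in opposite directions. The call of the second cluster held without each of the 12 arrays in turn. The calls of the *Kcnmb4* and *Cacnb2* second clusters held in 3 of the 12 such fits each (adjusted p up to 0.121 and 0.123). The main clusters of *Kcnmb4* and *Cacnb2* differed by 0.08 and -0.06 there. These second clusters had lower mean levels than the main clusters. They were 6.95 against 9.63 for *Cacng2*, 5.97 against 7.59 for *Kcnmb4* and 5.26 against 8.80 for *Cacnb2*. The sequence that the probes of each cluster match was not analysed here.

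**Figure D5:**
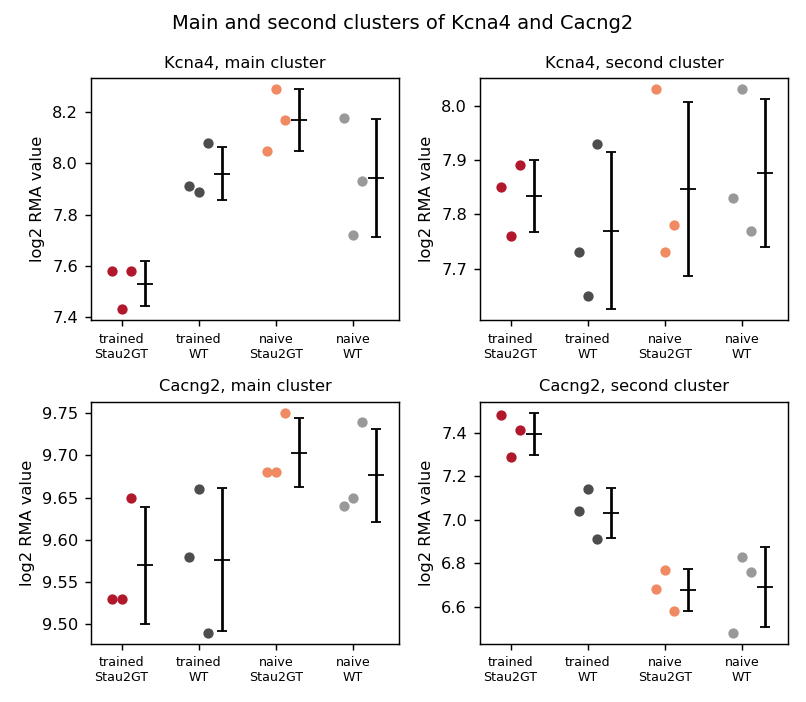
Log2 values (vertical axes) of the main and second clusters of *Kcna4* and *Cacng2* in trained Stau2GT, trained WT, naive Stau2GT and naive WT brains. Points are mice, and bars give the mean and SD (n = 3). The second *Cacng2* cluster spans 7.29 to 7.48 in trained Stau2GT and 6.58 to 6.77 in naive Stau2GT brains, and the second *Kcna4* cluster overlaps between all groups.

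Channels known for neuronal firing, or for a glial or vascular cell type, were named whatever their change, and 17 of 20 were measured. Their genotype differences lay between -0.08 (*Kcnj10*) and 0.12 (*Scn2a*, the sodium channel of excitatory axons) in trained mice, and between -0.18 (*Kcnn2*) and 0.08 (*Scn4b*, a beta subunit linked to resurgent current) in naive mice. *Kcna1* and *Kcna2*, the Kv1 subunits beside the node of Ranvier, averaged 9.51 and 9.67 in trained Stau2GT, 9.49 and 9.68 in trained WT, 9.62 and 9.62 in naive Stau2GT, and 9.58 and 9.65 in naive WT brains. *Kcnc1*, the Kv3 channel of fast spiking, averaged 8.83, 8.79, 8.76 and 8.80 in these groups, and *Kcnd2*, the A-type channel of dendrites, 10.60, 10.55, 10.54 and 10.58. *Kcnma1*, the large-conductance calcium-activated channel, averaged 10.50, 10.42, 10.37 and 10.38, and *Cacna1g*, the T-type channel of thalamic bursts, 8.15, 8.09, 8.0 and 7.98. None of these differences passed the test. *Cacna2d2*, an alpha2delta subunit that is abundant in Purkinje cells, differed by 0.06 in trained and -0.05 in naive mice. *Kcnj8*, a rectifier of pericytes, differed by 0.04 in trained and 0.06 in naive mice. *Kcnip2*, a Kv4 partner, differed by 0.05 and -0.0067 between genotypes and by -0.23 and -0.28 between trained and naive brains of Stau2GT and WT mice.

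Proteins that bind, anchor or regulate these channels formed a list of 49 genes, of which 46 were measured. In trained mice 0 of 46 (0.179% of all clusters) and in naive mice 0 of 46 (0.0858% of all clusters) were called between genotypes. At an unadjusted p under 0.05, limma marked 2 of 46 in trained mice (8.92% of all clusters) and 1 of 46 in naive mice (5% of all clusters). In trained against naive brains 1 of 46 was called in Stau2GT mice (6.11% of all clusters) and 0 of 46 in WT mice (1.4% of all clusters). The called gene was *Lrrc26*, an auxiliary subunit of the large-conductance channel in secretory cells, with 6.30, 6.35 and 6.47 in trained and 5.74, 5.89 and 5.95 in naive Stau2GT brains, a difference of 0.51 (adjusted p = 0.0194). In WT mice it had 6.15, 6.15 and 5.92 in trained and 5.93, 5.97 and 5.7 in naive brains, which overlapped. The call held in 9 of the 12 fits that left out 1 array (adjusted p up to 0.0671).

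Marker genes of other cell types in the lysate were set beside these values, and their part in them was not tested. Between trained Stau2GT and trained WT brains, 9 of 11 Purkinje cell markers lay above 0 (median 0.15) and 13 of 15 cerebellar granule cell markers (median 0.11), and in naive mice 7 of 11 (median 0.12) and 12 of 15 (median 0.06). Their summed linear levels spanned 9388 to 9789 in trained Stau2GT and 8587 to 9167 in trained WT brains for Purkinje cells, which did not overlap, and 6383 to 6820 and 5872 to 6504 for granule cells, which did. In naive mice both overlapped, with 8768 to 10056 in Stau2GT and 8881 to 9700 in WT brains for Purkinje cells, and 5732 to 6836 and 5835 to 6883 for granule cells. Of the 11 choroid plexus markers 10 lay above 0 in trained and 8 in naive mice (medians 0.14 and 0.11), and *Kcne2*, a potassium channel subunit of that tissue, differed by 0.155 on average (limma adjusted p = 0.848). Mature oligodendrocyte markers lay above 0 in 4 of 14 in trained and 14 of 14 in naive mice (medians -0.08 and 0.13), mural cell markers in 6 and 13 of 15 (medians -0.03 and 0.12), and olfactory bulb markers in 0 and 1 of 11 (medians -0.05 and -0.11). Thalamus (-0.07 and -0.03), striatal projection neuron (-0.03 and 0.04), astrocyte (-0.01 and 0.02) and microglia (-0.07 and 0.02) medians followed, and 3 of 11 red blood cell markers were measured (0.15 and 0.06). No marker was called between genotypes, where 0.179% of all clusters were called in trained and 0.0858% in naive mice. Between trained and naive Stau2GT brains, 8 of 11 Purkinje cell and 13 of 15 granule cell markers lay above 0 (medians 0.06 and 0.12). There 1 of 15 granule cell and 1 of 15 mural cell markers were called, where 6.11% of all clusters were called. Below 0 lay 11 of 14 microglia (median -0.15), 11 of 14 mature oligodendrocyte (median -0.13), 9 of 11 olfactory bulb (median -0.03), 8 of 12 striatal projection neuron (median -0.06), 8 of 14 thalamus (median -0.06), 10 of 15 mural cell (median -0.03) and 6 of 11 choroid plexus markers (median -0.10), and 1 of 3 red blood cell markers (median 0.08). Between trained and naive WT brains no marker was called, where 1.4% of all clusters were called. There 10 of 11 olfactory bulb (median -0.18), 12 of 14 microglia (median -0.06), 9 of 14 thalamus (median -0.04), 7 of 11 choroid plexus (median -0.06) and 2 of 3 red blood cell markers (median -0.05) lay below 0, and 11 of 15 mural cell (median 0.07), 9 of 14 mature oligodendrocyte (median 0.05), 9 of 15 astrocyte (median 0.01), 6 of 11 Purkinje cell (median 0.01), 8 of 15 granule cell (median 0.0033) and 6 of 12 striatal projection neuron markers (median 0.0067) lay above 0.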

How the data were processed

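The deposited values are log2 intensities per probe cluster, which the authors had summarized and normalized by RMA with the Bioconductor package oligo. Its version is not given, nor whether both training states entered the same normalization. All 12 arrays were used, 3 mice per group, and their number limits the precision. Symbols came from the platform annotation, and only clusters with 1 symbol were named.

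Clusters above log2 5 in at least 3 arrays (27966) were fitted with limma 3.58.1 under R 4.3.3, with statmod 1.5.0, as 4 group means over the 12 arrays (8 residual degrees of freedom, 2.78 prior). A cluster was called at a Benjamini-Hochberg adjusted p under 0.05, with the adjustment over all 27966 clusters. Exact permutation tests were also run on the named genes and are not quoted, since these genes were chosen by their p in the same data. For the comparisons of training state, the genes named by rule were those called in both genotypes, of which there were 0. For each genotype comparison the rule took every called gene and filled up to 5 in each direction by unadjusted p (3 for the interaction). It further took 20 fixed genes, genes whose clusters differ in sign with a call, and the genes nearest the threshold. The member list, the 11 marker lists, the list of channel partners and the tests were chosen with earlier results of these data known.

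Alternatives were no filter, a filter at log2 6, quantile normalization, median centering, robust moderation with an intensity trend, weighting of arrays, a replicate block, only the 6 arrays compared, the methods' t-test, averaging the clusters of a gene, and each array left out in turn. Some items are not reported here.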

Additional observations from a re-analysis of the deposited data

How the results depend on the processing

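The count of 0 channel genes called between genotypes, averaged over training states and for the interaction was the same under every alternative run. For trained against naive WT brains it was 0 in the main setting, and 2 with a filter at log2 6, 1 with median centering, 3 with an intensity trend and robust moderation and 2 with array weights (*Kcnj16*, *Kcnn2* or *Kcnt1*). Over all clusters 391 were called in the main setting, against 512 (of 19654 tested), 379, 661 and 730 in these. For trained against naive Stau2GT brains the 6 calls became 3 without a filter, 3 with array weights, 1 with only the 6 arrays compared (*Kcna4*) and 0 by the methods' t-test. Over all clusters 1708 were called in the main setting, against 1251 (of 41345 tested), 961, 261 and 0 in these. A filter at log2 6 and quantile normalization gave 5 calls each, and an intensity trend with robust moderation gave 7. Over all clusters these 3 settings called 1696 (of 19654 tested), 1212 and 1973. Leaving out 1 array gave 1 to 6 calls. There were 3 without naive WT mouse 1, 2, 1 and 3 without naive Stau2GT mouse 1, 2 and 3, 3 without trained WT mouse 3, and 1 without trained Stau2GT mouse 2. In the same order these fits called 1420, 430, 526, 469, 1452 and 492 of all clusters. The cause was not tested. With the replicate number as a block 4 of the 6 genes were called (*Cacna1f*, *Kcna4*, *Kcnj16* and *Kcnt1*), and the counts of 0 did not change. The labels give same-numbered mice only the number in common. The 12 same-numbered pairs correlated at -0.027 to 0.069. With 3 mice per group this cannot show that they share nothing else.

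Signs turned for *Kcnab3* averaged over training states (0.0133 as the mean over its clusters), for *Kcna4* between trained and naive WT brains (-0.0067 with median centering, -0.045 as the mean over its clusters, -0.095 to 0.135 with 1 array left out), and for the second *Kcna4* cluster between trained and naive Stau2GT brains (0.0368 with quantile normalization, -0.0717 to 0.0783 with 1 array left out).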
